A study of Mus musculus with 32 samples.

Results

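The proximal tubule sodium-coupled transporters were examined as a set of 10 genes: Slc5a2, Slc2a2, Slc34a1, Slc34a3, Slc13a1, Slc13a3, Slc5a12, Slc6a19, Slc9a3 and Slc4a4. They were chosen by gene name, each name matched 1 row, and they are 10 of the 54532 genes in the count table. Kidney RNA of C57BL/6 mice was sequenced in both sexes, without injury (Day 0) or on Day 2, 3 or 5 of cisplatin, a platinum drug that injures the tubule. Each of the 8 groups held 4 libraries, 32 in all. The mice were 6 to 8 weeks old and received 1 intraperitoneal injection of 20 mg/kg. Day 0 animals are described as healthy, and they are used here as the uninjected control. The labels of the Day 0 females nevertheless name cisplatin as the treatment, while those of the Day 0 males name none. The mice were wild type, and the tissue is kidney as a whole, so that fewer proximal tubule cells and less RNA per cell cannot be told apart.

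The proximal tubule reclaims most of the glucose, phosphate, amino acids, organic anions and bicarbonate that the glomerulus filters. Its apical membrane carries each solute inward together with sodium, down the sodium gradient that the basolateral sodium pump maintains. Not all members work this way. Slc2a2 encodes GLUT2, a facilitated carrier that lets glucose out across the basolateral membrane and couples to no ion, Slc9a3 an exchanger of sodium for protons, and Slc4a4 a basolateral carrier by which bicarbonate leaves the cell. Loss of these carriers from the injured tubule is known to waste glucose, phosphate and amino acids into the urine.

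The phosphate cotransporter genes Slc34a1 and Slc34a3 are the pair on which the day comparisons turn, and their promoters are shown for that reason. RefSeq sequences of GRCm38.p6 were found for 7 of the 10 genes, with 8 start sites, since Slc4a4 has a pair of them. Each runs 5′ to 3′ on the gene's own strand, over 300 bases that span the start. Capitals mark matches, on either strand, to GTTAAT (an HNF1-type motif), CAAAGTC (an HNF4-type motif) and AGGTCA (a nuclear receptor motif). The Slc34a1 promoter lies at chr13:55399398-55399697 on the plus strand, and that of Slc34a3 at chr2:25234185-25234484 on the minus strand.
Slc34a1: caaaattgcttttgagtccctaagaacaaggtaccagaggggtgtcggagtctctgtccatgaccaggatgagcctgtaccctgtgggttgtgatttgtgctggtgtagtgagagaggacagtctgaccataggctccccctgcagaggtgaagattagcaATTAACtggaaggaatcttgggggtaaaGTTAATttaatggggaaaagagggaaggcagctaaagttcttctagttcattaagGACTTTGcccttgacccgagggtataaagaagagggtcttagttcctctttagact
Slc34a3: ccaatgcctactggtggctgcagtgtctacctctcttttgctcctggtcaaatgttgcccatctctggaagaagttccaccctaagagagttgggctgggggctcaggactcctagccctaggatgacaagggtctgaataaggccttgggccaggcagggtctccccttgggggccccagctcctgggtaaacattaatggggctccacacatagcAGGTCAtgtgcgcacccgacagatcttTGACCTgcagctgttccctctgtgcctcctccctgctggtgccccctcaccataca

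The promoters of the pair shared none of the motifs searched. That of Slc34a1 held the HNF1-type motif at -89 and -61 and the HNF4-type motif at -6, counted from the start site to the motif's first base. That of Slc34a3 held the nuclear receptor motif at -33 and at -6, on opposite strands. Among 32851 mouse promoters of this length, 7.10% held GTTAAT, 4.44% held CAAAGTC and 16.3% held AGGTCA. Besides Slc34a3, AGGTCA occurred in Slc2a2, at -21, and at -121 before the inner start of Slc4a4, and the promoters of Slc13a3, Slc6a19 and Slc9a3 held none of the 3 motifs. The Slc34a1 and Slc6a19 sequences lie inside the annotated genes, whose 5′ ends are at 55398187 and 73704865 of chromosome 13. The Slc6a19 sequence is at 73692587 to 73692886. Sequence at those outer ends was not searched. A match is a description of letters and shows no binding.

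Library totals ran from 16502107 to 35961325 counts. Several libraries stood apart. Transcripts of the mitochondrial genome took between 4.49% and 23.97% of counts at Day 0, Day 2 and Day 3. At Day 5 they took 42.5%, 78.9%, 79.8% and 79.7% in males 1 to 4, and 31.6%, 77.9%, 22.2% and 9.30% in females 1 to 4. Xist, the transcript of the inactive X chromosome of females, had 4153 counts in the Day 5 library labelled male mouse 1, a number within the range of the female libraries, and the other male libraries held at most 260. The same library held 387 counts of 4 Y-linked genes, where the other males of Day 5 held 447 to 545. Its effective library size, by which deposited levels are scaled, was 17750737, against 5942862 to 6734819 in those males. Scaled by that size, its Y-linked signal was below that of each of them. Males of Day 0, Day 2 and Day 3 held 1367 to 3195 Y-linked counts. Y-linked counts were also found in the Day 0 females, at 5 to 221, while females of Day 2, Day 3 and Day 5 held 0. Male Day 0 mouse 4 held 242 Xist counts. The source of these counts was not tested. Blood cell genes were high at Day 0 (summed level of 5 genes between 521 and 3516) and low at Day 2 and Day 3 (0.518 to 203). For the members, the Day 5 comparisons with Day 0 and between the sexes are also given without high-mitochondrial libraries or the library with 4153 Xist counts. The gene lists are given with all 4 libraries of a group.

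At Day 0 the set was expressed in every library, and Slc34a1 stood far above the rest. Levels are deposited FPKM, which are fragment counts scaled by the length of the gene and by an effective library size that the authors set, and can be compared between genes. Slc34a1, which encodes the apical cotransporter NPT2a, had 1168, 1084, 1231 and 1037 FPKM in the 4 males and 855.9, 891.0, 861.8 and 1232 in the 4 females. It made up 74.1% ± 5.25 (SD, n = 4) of the summed FPKM of the 10 genes in males and 70.3% ± 5.48 (SD, n = 4) in females. The summed level was 1525 ± 43.3 FPKM in males and 1386 ± 388 in females (SD, n = 4 each).

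After Slc34a1, the order of the Day 0 means in males was Slc13a3 at 106.0 FPKM, Slc5a2 at 76.9, Slc6a19 at 48.0, Slc4a4 at 46.8, Slc13a1 at 31.1, Slc34a3 at 30.6, Slc2a2 at 22.9, Slc5a12 at 21.6 and Slc9a3 at 11.04. In females the order was Slc13a3 at 109.6, Slc5a2 at 85.4, Slc6a19 at 52.0, Slc34a3 at 51.5, Slc4a4 at 41.6, Slc5a12 at 32.02, Slc13a1 at 24.2, Slc2a2 at 20.2 and Slc9a3 at 9.75. Only the step from Slc34a1 to Slc13a3 separated neighbours whose ranges over the 4 libraries did not overlap, in each sex. On Day 2 and Day 3 that step was again free of overlap for males and for females, as it was in females at Day 5, whereas in males at Day 5 the ranges of Slc34a1 and the next gene overlapped.

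**Figure D1:**
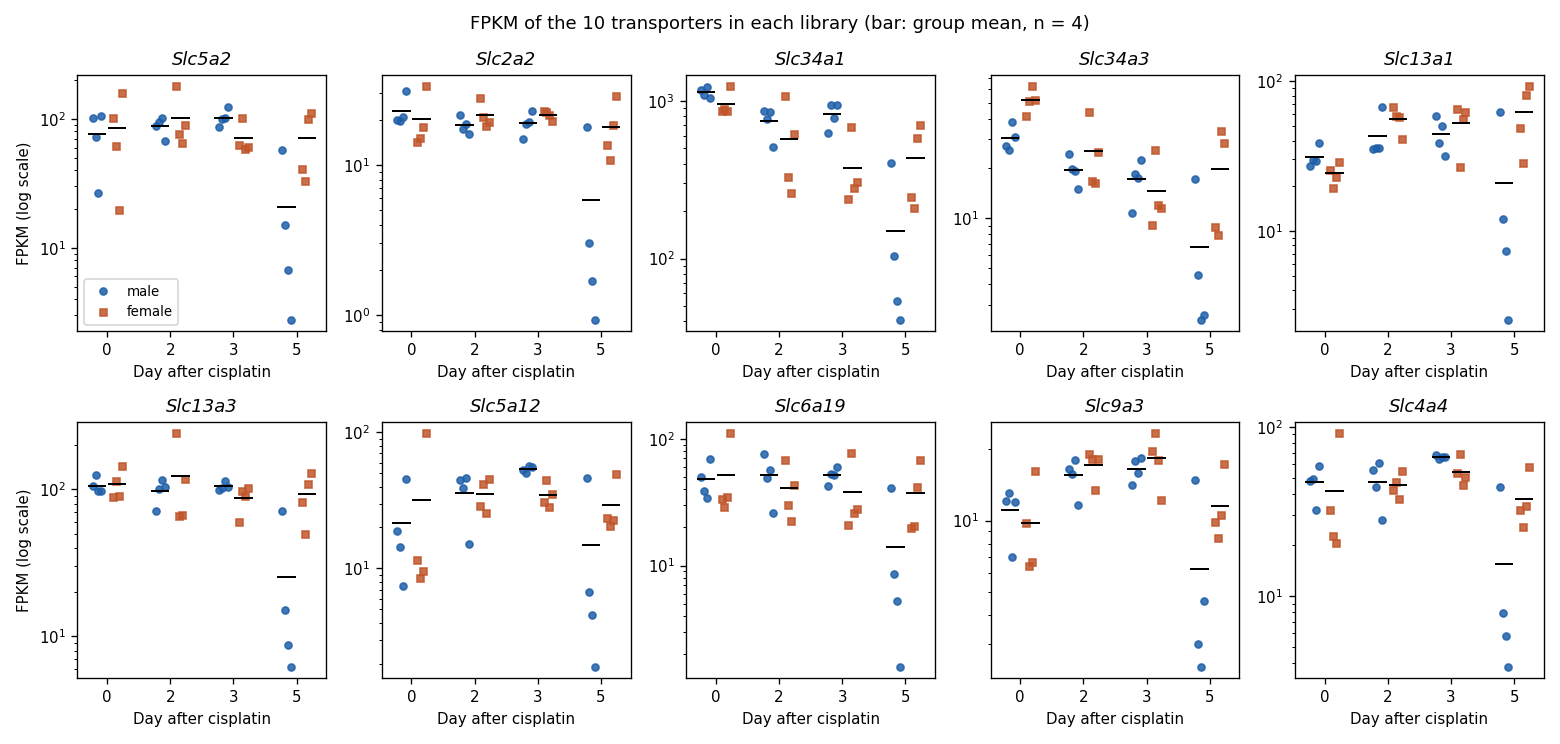
FPKM (log scale) of each of the 10 genes against the day after cisplatin, with 1 circle per male library, 1 square per female library and a bar at the mean of 4. Slc34a1 and Slc34a3 stand lower after Day 0 in both sexes, apart from female Day 2, where mouse 1 overlaps Day 0, and males 2 to 4 of Day 5 lie below the other 29 libraries in each of the 10 panels.

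The Day 0 libraries were not uniform. Mouse 4 of each sex was high for several carriers. Slc5a12, the sodium-coupled lactate carrier, had 19.0, 14.4, 7.41 and 45.7 FPKM in males 1 to 4 and 11.6, 8.49, 9.52 and 98.5 in females 1 to 4. Mouse 3 of each sex was low for Slc5a2, at 26.5 FPKM in the male and 19.8 in the female against 61.4 to 159 in the other 6. The mitochondrial share was 23.97% and 19.7% in mouse 4 of each sex. Malat1, a nuclear RNA looked up after these values were seen, was at 5.66 and 7.22 FPKM in mouse 3 of each sex against 30.9 to 67.5 in the other 6. Malat1 moved with the day as well: its median was 42.97 FPKM at Day 0, 174.75 at Day 2 and 204.7 at Day 3 in males, and 46.2, 123.2 and 107.4 in females. Whether RNA quality had a part in these differences, or in those between days, was not tested. Slc5a12, with the widest Day 0 spread relative to its mean, had standard errors of 0.48 and 0.76 on the log2 scale in the Day 3 comparisons of males and females, against 0.22 and 0.32 for Slc34a3.

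The comparison of each day with Day 0 asks how expression of the carriers changed as the kidney was injured. A gene is said to have passed where it did so in edgeR's fit of the groups compared, unless another tool is named. In males at Day 2, no member passed: of the 16051 genes tested with edgeR's quasi-likelihood fit, 3.16% had a Benjamini-Hochberg adjusted p under 0.05. By unadjusted p under 0.05, 2 members and 29% of all genes passed. DESeq2 called 2 members, Slc34a1 and Slc34a3, among 2869 of 31413 genes. Fitted fold changes were higher for 6 members and lower for 4. The groups did not overlap in FPKM for 2 members, again Slc34a1 and Slc34a3, against 24.8% of all genes tested.

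In males at Day 3, only Slc34a3 passed edgeR's test, and it fell. DESeq2 called 5 members there, Slc34a1, Slc34a3, Slc5a12, Slc9a3 and Slc4a4, among 5548 of 31042 genes. Slc34a3 encodes NPT2c, the second apical sodium-phosphate cotransporter of the proximal tubule. Its level was 27.2, 25.9, 38.2 and 31.1 FPKM at Day 0, 24.4, 19.9, 19.3 and 15.0 at Day 2, and 10.8, 18.5, 17.4 and 22.4 at Day 3. All males of both later days lay below all 4 of Day 0. The log2 fold change at Day 3 was -0.82 (SE 0.22, adjusted p = 0.0313). At Day 2 it was -0.63 (SE 0.18, adjusted p = 0.0745). In all, 1 of 10 members was called at Day 3, where 24.5% of 15908 genes were called and 13.1% were called lower, and the share of members called is below that background. FPKM did not overlap for 5 members against 38.5% of genes. The call was lost without male Day 3 mouse 1, mouse 2 or mouse 3 (adjusted p = 0.0576, 0.0762 and 0.0890), with log2 fold changes of -0.65, -0.85 and -0.82 and 1066, 1025 and 669 genes called in place of 3901. It was also lost in a fit over all 8 groups (-0.82, adjusted p = 0.240) and with a replicate block (-0.85, adjusted p = 0.0608).

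Slc34a1 lay lower than Day 0 in every male of Day 2, with 864.2, 768.5, 847.9 and 507.0 FPKM, and of Day 3, with 624.3, 943.9, 780.8 and 945.9. Its log2 fold changes of -0.59 (adjusted p = 0.121) and -0.45 (adjusted p = 0.109) did not pass in edgeR. At Day 3 a further 3 carriers stood above Day 0 without passing edgeR's test. Slc5a12 had 53.3, 49.9, 56.5 and 55.9 FPKM, above all Day 0 males, and a log2 fold change of 1.31 (SE 0.48, adjusted p = 0.0730). Slc9a3, the apical sodium-hydrogen exchanger NHE3, had 14.2 to 18.3 FPKM against 7.03 to 13.1 at Day 0, with 0.58 (SE 0.20, adjusted p = 0.0629). Slc4a4, the basolateral sodium-bicarbonate cotransporter NBCe1, had 64.1 to 68.3 FPKM against 32.4 to 58.4, with 0.49 (SE 0.19, adjusted p = 0.0853). The 3 genes did not overlap with Day 0 in FPKM. Without Day 0 mouse 4, Slc5a12 and Slc4a4 passed beside Slc34a3, where 5658 of 16295 genes did. Without Day 0 mouse 3, Slc9a3 and Slc4a4 passed beside Slc34a3, where 6220 of 16096 did. Genes over 8 kb, the length class of Slc4a4, had medians of 0.44 in males and 0.34 in females at Day 3, and the part of gene length was not tested.

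In females at Day 2 a single carrier passed, and it rose. Slc13a1 encodes NaS1, the apical sodium-sulfate cotransporter. It had 25.6, 19.4, 23.0 and 29.0 FPKM at Day 0 and 67.1, 58.3, 58.0 and 40.9 at Day 2, and the groups did not overlap. The log2 fold change was 1.23 (SE 0.26, adjusted p = 0.0461). It was the only member called of 10, against 1.93% of 16541 genes called and 0.774% called higher. FPKM of 1 member did not overlap against 15.3% of genes. The call stood close to the threshold: leaving out any 1 of the 8 libraries other than Day 0 mouse 4 gave adjusted p between 0.0562 and 0.173, and without Day 0 mouse 4 it was 0.00580. The log2 fold change stayed between 1.12 and 1.37, while 21 to 45 genes in all were called in 5 of the 7 fits that lost the call, and 163 and 328 in the others, in place of 320. Without Day 0 mouse 4, Slc5a12 (1.85, adjusted p = 0.00283), Slc9a3 (1.19, adjusted p = 0.00603) and Slc4a4 (0.87, adjusted p = 0.0338) also passed, where 4776 of 16870 genes did. The Slc13a1 call was also lost in a fit over all 8 groups (adjusted p = 0.102) and with a replicate block (adjusted p = 0.112).

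In females at Day 3, Slc34a3 fell the most of the set. It had 41.3, 50.8, 62.5 and 51.5 FPKM at Day 0, 43.9, 16.9, 16.4 and 25.0 at Day 2, and 9.10, 25.8, 12.0 and 11.5 at Day 3. The log2 fold change at Day 3 was -1.82 (SE 0.32, adjusted p = 0.0465), past the study's limit of 1.5 for a differentially expressed gene. It was the 1 member called, against 5.54% of 17065 genes called, 4.28% called lower and 2.48% past the fold limit as well. Slc34a1 went the same way, from 855.9 or more at Day 0 to 236.8, 679.0, 278.6 and 306.4 FPKM at Day 3, without overlap, at -1.36 (SE 0.37, adjusted p = 0.0556). Slc13a1 stayed high, with 65.5, 26.8, 56.1 and 61.9 FPKM, at 1.12 (SE 0.29, adjusted p = 0.0521). Neither of the last passed in edgeR, but DESeq2 called both beside Slc34a3, among 3466 of 31833 genes, and so did edgeR with at least 10 counts in every library, among 1678 of 13774. FPKM did not overlap for 2 members, against 19.4% of genes. The Slc34a3 call was lost without any 1 library other than Day 0 mouse 4 and Day 3 mouse 2, with adjusted p between 0.0713 and 0.168. In those 6 fits at most 1 gene of the whole table passed, and the log2 fold change stayed between -1.64 and -1.88.

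Female Day 3 mouse 2 differed from the other 3. Its Slc34a1, at 679.0 FPKM, and its Slc34a3, at 25.8, were the highest of the group, and its Slc13a1, at 26.8, was the lowest. Without it, 3 members passed, where 544 of 17247 genes did: Slc34a3 at -2.23 (adjusted p = 0.00375), Slc34a1 at -1.80 (adjusted p = 0.0224) and Slc13a1 at 1.34 (adjusted p = 0.0206). The summed level of 9 injury genes in the 4 females of Day 3 ran from 831.8 to 3368 FPKM, and its lowest value belonged to mouse 2. In females of Day 0 that sum was 887.1 to 1305.

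Female Day 0 mouse 4, the library with high Slc5a12, bore on the female calls as strongly. Without it, 7 members passed at Day 3, where 6774 of 17304 genes did. Slc34a1 (-1.21, adjusted p = 0.0298) and Slc34a3 (-1.82, adjusted p = 0.00481) were lower. The other 5 were higher: Slc2a2 (0.46, adjusted p = 0.0181), Slc13a1 (1.22, adjusted p = 0.0161), Slc5a12 (1.82, adjusted p = 0.00165), Slc9a3 (1.26, adjusted p = 0.00622) and Slc4a4 (1.11, adjusted p = 0.00728). The acid-base pair Slc9a3 and Slc4a4, the lactate carrier and the sulfate carrier thus stood above the other 3 Day 0 females while the phosphate pair stood below them. With all 4 females of Day 0, Slc5a12 had a log2 fold change of 0.12 (SE 0.76, adjusted p = 0.927) in the same comparison.

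At Day 5 the largest differences of the set were found, in males. All 10 members had lower fitted levels than at Day 0, with a median log2 fold change of -1.84 against 0.04 over all genes tested. Of the 10, 2 passed in edgeR, and DESeq2 called Slc2a2, Slc13a3 and Slc4a4 beside them, among 4053 of 28853 genes. Slc34a1 fell from between 1037 and 1231 FPKM to 402.7, 103.3, 53.9 and 40.9, with a log2 fold change of -2.93 (SE 0.73, adjusted p = 0.0256). Slc34a3 fell to 17.1, 4.51, 2.43 and 2.58 FPKM, at -2.17 (SE 0.58, adjusted p = 0.0315). Both also passed the fold limit of 1.5. Against this, 19.2% of 14969 genes were called, 10.2% were called lower and 7.53% passed the fold limit too. FPKM did not overlap for 4 members, namely the phosphate pair, Slc2a2 and Slc13a3, against 27.3% of genes.

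The male Day 5 result depended on which libraries it held. In males 2 to 4, with 78.9% to 79.8% mitochondrial counts, the 10 genes summed to 179.2, 98.9 and 67.8 FPKM, and in the library labelled mouse 1 to 774.5. Each of the 10 genes was lower in these 3 males than in any of the other 29 libraries of the study. Slc13a3, the sodium-dicarboxylate cotransporter, had 71.6 FPKM in mouse 1 and 15.0, 8.68 and 6.24 in the others. Slc2a2 had 17.9 in mouse 1 and 3.00, 1.70 and 0.929 in the others. Slc6a19, the apical neutral amino acid carrier, had 40.6 in mouse 1 and 8.52, 5.31 and 1.60 in the others. Without mouse 1, all 10 members passed, where 3951 of 15221 genes did, with log2 fold changes between -1.75 for Slc9a3 and -4.11 for Slc34a1. With mouse 1 alone, set against the 4 males of Day 0 after leaving out libraries over 50% mitochondrial, neither a member nor any of 18506 genes passed, so the fit cannot speak to the calls: Slc34a1 was at -1.45 (adjusted p = 0.693) and Slc34a3 at -0.79 (adjusted p = 0.767), while Slc13a1, Slc5a12 and Slc9a3 were above Day 0, at 1.03, 1.11 and 0.46. That fit assumes that the lone library varies like those of Day 0. Leaving out 1 library at a time gave adjusted p between 0.000645 and 0.0844 for Slc34a1 and between 0.000401 and 0.0941 for Slc34a3. The Slc34a1 call was lost without Day 0 mouse 1 or 2 or Day 5 mouse 2, 3 or 4, and the Slc34a3 call without any library but Day 0 mouse 4 and Day 5 mouse 1. Where both were lost, 832 to 1051 genes were called in place of 2878, and the log2 fold changes lay between -2.61 and -2.94 for Slc34a1 and between -1.91 and -2.25 for Slc34a3.

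**Figure D2:**
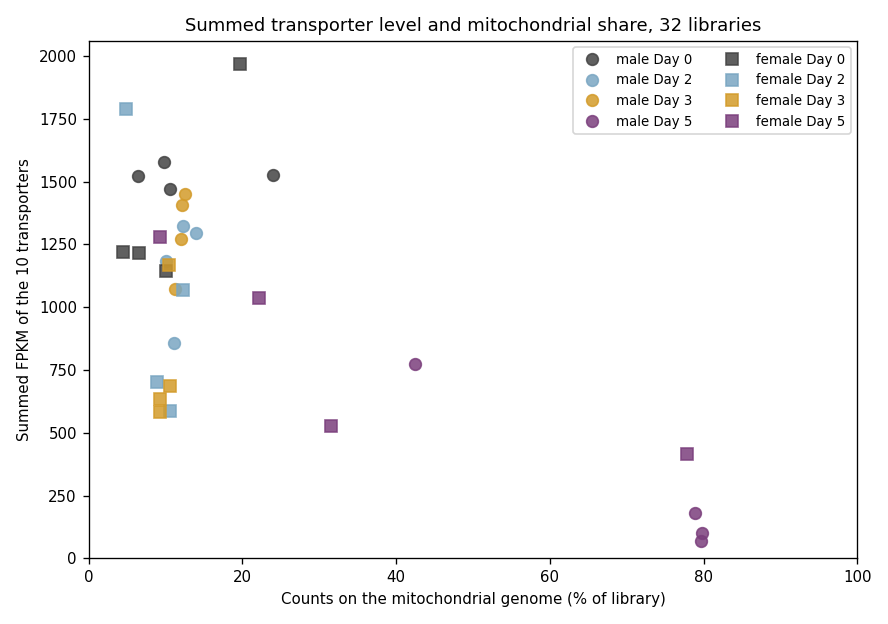
Summed FPKM of the 10 genes against the percentage of counts on the mitochondrial genome, 1 point per library, circles for males and squares for females, coloured by day. The 4 libraries above 50% mitochondrial, of which 3 are male Day 5 and 1 is female Day 5, have the lowest sums, between 67.8 and 415.0 FPKM, and the library labelled male Day 5 mouse 1 is at 774.5.

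The set made up 0.222% ± 0.271 (SD, n = 4) of the counts on nuclear genes in males of Day 5, against 0.899% ± 0.142 at Day 0. Mitochondrial counts are left out of that share, which was 0.134%, 0.0802% and 0.0492% in males 2 to 4 and 0.625% in the library labelled mouse 1. Markers of other cells moved too. The summed level of 7 leukocyte genes was 16.5 to 334.6 FPKM in males at Day 5 against 5.03 to 9.37 at Day 0. The sum of 6 collecting duct genes was 568.2 to 1086 against 260.9 to 594.2, and that of 5 intercalated cell genes 117.6 to 169.8 against 58.8 to 76.8. The 5 genes of the thick limb summed to 131.1 to 636.9 against 144.2 to 720.0, with overlap. The 4 fibroblast genes summed to 36.4 to 219.4 against 20.6 to 82.5, the 5 fat cell genes to 579.2 to 3500 against 280.7 to 1510 and the 5 blood cell genes to 261.6 to 7227 against 539.5 to 2803. None of the genes in these lists was at 0 in all libraries of either group. Other comparisons held such moves too. The 4 adrenal cortex genes summed to 145.8 to 334.9 FPKM in females at Day 5 against 0.703 to 78.8 at Day 0, and reached 523.0 in females at Day 3. The 4 genes of the distal convoluted tubule summed to 25.9 to 56.5 in males at Day 3 against 113.7 to 230.0, and the 4 females of Day 3 likewise lay below all females of Day 0, at 140.5 to 391.9. At Day 2 these genes summed to 42.8 to 86.2 in males and 68.1 to 102.6 in females, also below all Day 0 animals of the same sex. The 5 podocyte genes summed to 66.2 to 78.4 in males at Day 3 and to 61.3 to 80.5 at Day 2, against 31.0 to 50.8 at Day 0. Proximal tubule segments are set beside these. In females the 5 early (S1 and S2) genes summed to 207.2 to 579.2 at Day 3 against 528.1 to 1118 at Day 0. The 6 late (S3) genes summed to 84.4 to 205.6 against 82.8 to 422.0. In males at Day 3 these sums were 382.0 to 556.1 against 483.3 to 798.2, and 233.2 to 500.2 against 203.8 to 862.3. All of these overlapped. The part of these cells in the members' results was not tested.

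In females at Day 5 no member passed edgeR's test, where 0.258% of 16260 genes were called. By unadjusted p under 0.05, 3 members and 15.7% of all genes passed, and DESeq2 called Slc13a1 among 704 of 29602 genes. The phosphate pair had no overlap with Day 0: Slc34a1 was at 246.0, 210.3, 583.6 and 698.6 FPKM, with a log2 fold change of -1.13 (adjusted p = 0.281), and Slc34a3 at 8.80, 7.95, 33.7 and 28.6, with -1.36 (adjusted p = 0.214). No other members were without overlap, against 8.6% of genes. Slc13a1 was at 48.6, 28.6, 81.0 and 92.3 FPKM, with 1.38 (adjusted p = 0.160). Mice 1 and 2 were the lower for Slc34a1, Slc34a3 and Slc13a1, and these had the higher mitochondrial shares, 31.6% and 77.9%. Without mouse 2, Slc34a1 was at -0.89 (adjusted p = 0.447) and Slc13a1 at 1.63 (adjusted p = 0.0806). Without female Day 0 mouse 4, Slc13a1 (1.49, adjusted p = 0.0338) and Slc5a12 (1.57, adjusted p = 0.0182) passed, where 2082 of 16480 genes did.

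**Figure D3:**
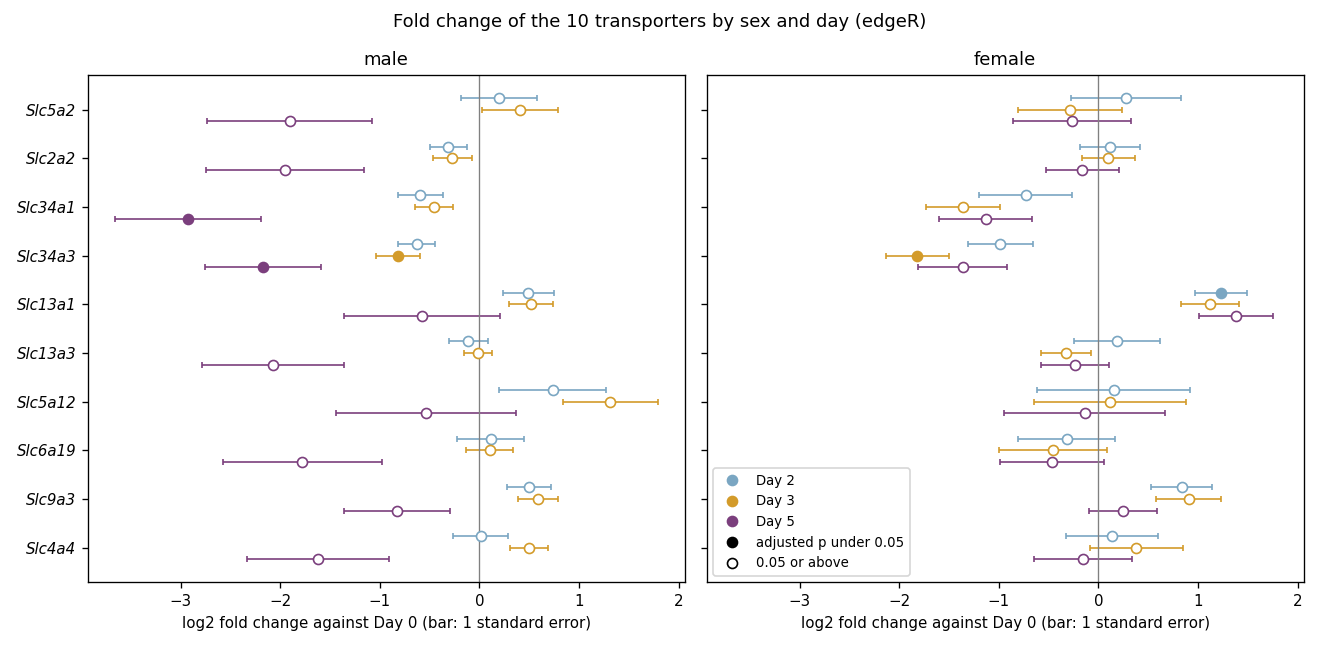
Log2 fold change of each gene against Day 0 of the same sex (x axis, edgeR, bars of 1 standard error), males left and females right, coloured by day, filled where adjusted p was under 0.05. The 5 filled points are Slc34a3 in males at Day 3 and Day 5 and in females at Day 3, Slc34a1 in males at Day 5, and Slc13a1 in females at Day 2.

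Neither glucose carrier passed against Day 0 when edgeR was fitted on the groups compared. A fit over all 8 groups called both in males at Day 5, among 5666 of 18220 genes. Without the library labelled male Day 5 mouse 1 both fell in males at Day 5, Slc5a2 at -3.24 (adjusted p = 0.00888) and Slc2a2 at -3.63 (adjusted p = 0.000728), and DESeq2 called Slc2a2 there with all libraries. Slc5a2 encodes SGLT2, the apical sodium-glucose cotransporter of the early proximal tubule. Its mean was 76.9 ± 36.7 FPKM at Day 0, 88.2 ± 15.0 at Day 2, 102.7 ± 15.2 at Day 3 and 20.6 ± 25.3 at Day 5 in males. In females it was 85.4 ± 59.3, 102.5 ± 51.8, 70.8 ± 20.3 and 71.1 ± 39.9 (SD, n = 4 throughout). The Day 0 libraries ran from 26.5 to 105.6 FPKM in males and from 19.8 to 159.0 in females. Slc2a2 held 18.4 ± 2.42 FPKM at Day 2 and 19.0 ± 3.23 at Day 3 in males against 22.95 ± 5.496 at Day 0. At Day 5 it was at 5.88 in males, without overlap with Day 0, at -1.95 (SE 0.79, adjusted p = 0.108). In females it held 21.6 ± 4.43 and 21.6 ± 1.40 against 20.2 ± 8.96, and at Day 5 17.9 ± 7.93. Slc2a2 is also a gene of liver, and the 1 Day 0 female with high hepatocyte genes (mouse 2, sum 7540 FPKM) had 15.05 FPKM of it, within the range of the others.

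The amino acid and dicarboxylate carriers likewise did not pass against Day 0 in edgeR's fits of the groups compared. In males at Day 5, Slc13a3 had a mean of 25.4 FPKM against 106.0, without overlap, at -2.07 (SE 0.71, adjusted p = 0.0675), and Slc6a19 had 14.02 against 48.0, at -1.78 (SE 0.80, adjusted p = 0.140). Without the library labelled mouse 1 both fell (adjusted p = 0.000623 and 0.00377), and DESeq2 and the fit with a replicate block called Slc13a3 with all 4. The fit over all 8 groups called Slc13a3 and Slc6a19. Slc6a19 had means of 48.0 ± 15.5, 51.9 ± 20.7 and 51.6 ± 7.30 FPKM in males at Day 0, Day 2 and Day 3, and 52.05 ± 38.96, 41.1 ± 20.3 and 38.1 ± 26.4 in females. Slc13a3 had 106.0 ± 12.7, 97.7 ± 18.8 and 105.0 ± 6.37 in males and 109.6 ± 26.6, 122.7 ± 82.2 and 87.5 ± 18.9 in females (SD, n = 4 throughout). Among the males its log2 fold change at Day 3 was -0.01 (SE 0.14). The widest single value was 240.7 FPKM in female Day 2 mouse 1, which was also the highest of its group for Slc5a2, Slc34a1, Slc34a3 and Slc6a19.

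Day 3 against Day 2 asks whether the carriers went on changing between the 2 middle days. No gene at all passed edgeR's test in males (0% of 16232) or in females (0% of 16974), although 1410 and 678 genes had an unadjusted p under 0.05. Of the members, 1 did in males, Slc4a4, with 0.49 (SE 0.21, adjusted p = 0.573), and 0 did in females. DESeq2 called 0 members in either sex, among 61 of 31335 genes in males and 74 of 31680 in females. The largest member difference in females was in Slc34a3, at -0.82 (SE 0.38, adjusted p = 0.969). FPKM of the 2 days did not overlap for 2 members in males, Slc5a12 and Slc4a4, both higher at Day 3, beside 1064 of 16232 genes. In females this held for 0 members, beside 497 of 16974 genes.

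The ratio of levels inside a library does not depend on how libraries were scaled. Slc13a1 and Slc34a3 were set against each other after their values were seen, so the ratio is a description. It was 0.768 to 1.24 in males at Day 0, 1.43 to 4.47 at Day 2, 1.41 to 5.4 at Day 3 and 0.982 to 3.62 at Day 5. In females it was 0.368 to 0.619 at Day 0, 1.53 to 3.54 at Day 2, 1.04 to 7.20 at Day 3 and 2.41 to 5.52 at Day 5. Every injected animal of either sex stood above the Day 0 animals of its sex, apart from the male Day 5 mouse with the lowest ratio. The genes differ in length: Slc13a1 is in the class of 4 to 8 kb and Slc34a3 in that of 2 to 4 kb. The medians of these classes at Day 3 were 0.16 and -0.15 in males and 0.17 and -0.10 in females. Whether gene length or RNA quality had a part in the ratio was not tested.

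**Figure D4:**
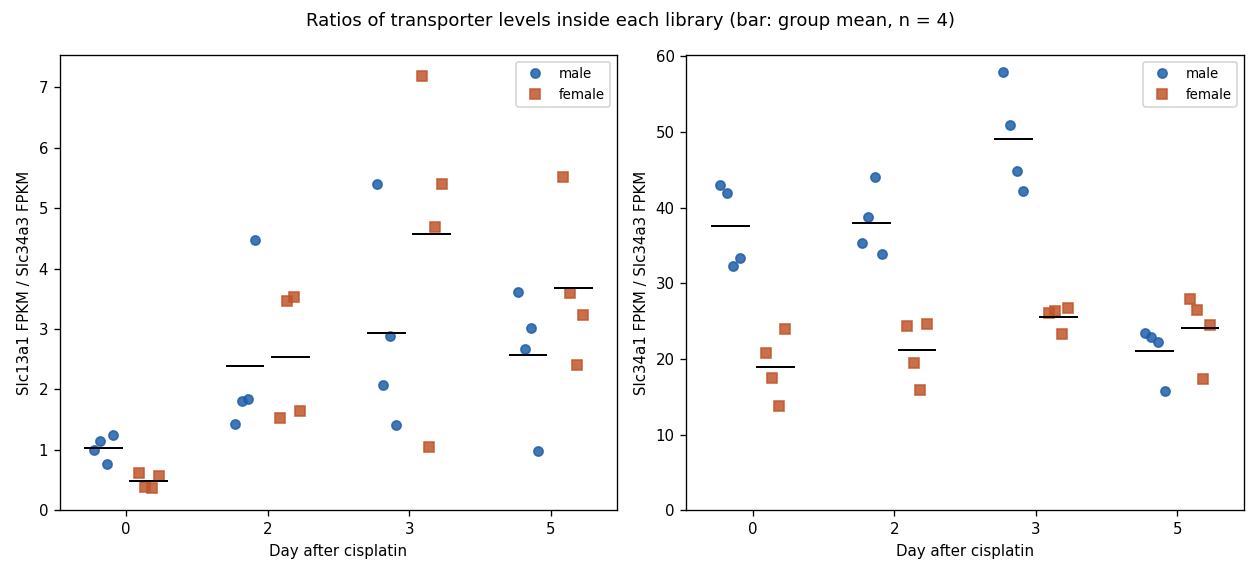
Ratio of Slc13a1 to Slc34a3 FPKM (left) and of Slc34a1 to Slc34a3 FPKM (right) in each library against the day after cisplatin, males as circles, females as squares, bars at the mean of 4. On the left the later days stand above Day 0 of the same sex, apart from 1 male of Day 5 at 0.982, and on the right the males of Day 0, Day 2 and Day 3 stand above all females of the same day.

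The ratio of the phosphate pair differed between the sexes before any injury. Slc34a1 over Slc34a3 was 32.3 to 43.0 in males and 13.8 to 23.9 in females at Day 0, 33.9 to 44.0 against 15.9 to 24.7 at Day 2, and 42.3 to 58.0 against 23.3 to 26.7 at Day 3. The sexes did not overlap on these 3 days. At Day 5 the male ratio was 15.8 to 23.5 and the female ratio 17.3 to 27.9, and they overlapped. This ratio too was chosen after its values were seen and was given no test. At Day 0 the gap lay mainly in Slc34a3, with 25.9 to 38.2 FPKM in males and 41.3 to 62.5 in females.

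Males against females on the same day asks whether the sexes differ in these carriers. At Day 0, Slc34a3 was the only member whose sexes did not overlap, against 6.15% of genes. It had a log2 difference (male minus female) of -0.74 (SE 0.19), an unadjusted p in edgeR of 0.00358 and an adjusted p of 0.214. No member passed at Day 0, where 0.449% of 16042 genes did. At Day 2 no member passed, none had an unadjusted p under 0.05, and none was free of overlap, while 1.47% of 16608 genes were called and 9.25% did not overlap. DESeq2 called Slc34a3 at Day 0, among 398 of 29946 genes, and 0 members at Day 2, among 833 of 31364. An unadjusted p under 0.05 was reached by 8.04% of genes at Day 0.

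At Day 3 the sexes differed in 2 members, both higher in males, against 21.3% of 16673 genes called and 10.6% called higher in males. Slc5a12 had 49.9 to 56.5 FPKM in males and 28.2 to 44.9 in females, without overlap, at 0.62 (SE 0.13, adjusted p = 0.0119). It was the 1 member without overlap, against 25.5% of genes. Slc34a1 was at 1.12 (SE 0.33, adjusted p = 0.0454), with 624.3 to 945.9 FPKM in males and 236.8 to 679.0 in females, where female mouse 2 overlapped the males. Slc5a12 passed without each library in turn, but 1 fit over all 8 groups called neither gene, where 180 of 18220 genes passed. Slc34a1 lost the call without any 1 library other than female mouse 2, and without that mouse 5 members passed, where 5770 of 16673 genes did. DESeq2 called Slc5a2 beside the pair, among 4276 of 31791 genes.

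At Day 5 all 10 members had a lower fitted level in males than in females, with a median log2 difference of -1.53, and none passed, where 0.276% of 15237 genes did and 8.83% did not overlap. By unadjusted p under 0.05, 1 member passed, Slc13a3 at -1.86 (SE 0.74, adjusted p = 0.208), beside 20.3% of all genes, and DESeq2 called 0 members among 1053 of 28062 genes. No member was free of overlap, because the library labelled male Day 5 mouse 1 lay among the females. Without it all 10 passed, where 2644 of 15562 genes did. Leaving out the 4 libraries over 50% mitochondrial keeps that library as the lone male, so the outcome, 0 members of 25 genes called, says little about the sexes.

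Whether the change from Day 0 differed between the sexes was tested as an interaction, given as the male minus the female log2 fold change. DESeq2 called 0 members on each of the 3 days, among 28 of 33996, 76 of 34298 and 650 of 32151 genes called. At Day 2 no gene passed (0% of 17467, with 738 at an unadjusted p under 0.05), and of the members Slc13a1 had the lowest p, at -0.76 (SE 0.35, adjusted p = 0.9999). At Day 3, 0.0114% of 17598 genes passed and no member did. Slc34a3 was at 0.98 (SE 0.39, adjusted p = 0.607) and Slc34a1 at 0.88 (SE 0.41, adjusted p = 0.693). At Day 5, 0.243% of 16907 genes passed and no member did, with Slc13a3 at -1.86 (SE 0.82, adjusted p = 0.292). The lower Slc34a1 of females than of males at Day 3 is therefore not shown to be a different response.

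For the 45 pairs of members, Pearson's r of log2 CPM (counts scaled to library size) had a median of 0.816 over 32 libraries, with a range of 0.419 to 0.942. Over the 16 libraries of Day 2 and Day 3 the median was 0.413, with a range of -0.706 to 0.925, and over the 8 libraries of Day 0 it was 0.598, with a range of -0.666 to 0.985. The libraries share the Day 5 fall of males 2 to 4, which enters the first set and not the others. These values are descriptions across libraries.

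The gene most like the mean profile of the set over 32 libraries was Hnf4a (r = 0.982), which encodes a nuclear receptor of proximal tubule and liver cells. Cldn2 (r = 0.971), the paracellular cation channel of the proximal tubule, came next, and C2cd2l, Kmo, Acot4, Dab2, Fmo1, Lpar3 and B3gat2 were among the 10 nearest (r between 0.958 and 0.970). Over the 16 libraries of Day 2 and Day 3 the nearest were Clcn6 (r = 0.946), Slc7a9 (r = 0.944) and Slc7a7 (r = 0.936), the last pair being subunits of amino acid exchangers. For single members, Fbp1 was nearest to Slc34a1 (r = 0.974), Miox to Slc34a3 (r = 0.956), Cldn2 to Slc2a2 (r = 0.975), Clrn3 to Slc13a1 (r = 0.932), Thnsl2 to Slc13a3 (r = 0.978), Palld to Slc5a12 (r = 0.937), Slc7a7 to Slc6a19 (r = 0.953), Prepl to Slc9a3 (r = 0.940) and Abat to Slc4a4 (r = 0.966).

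The wider transport machinery was followed in 4 lists. Their counts stand beside 3.16%, 24.5% and 19.2% of all genes called in males at Day 2, Day 3 and Day 5, with 13.1% called lower at Day 3 and 10.2% at Day 5, and beside 1.93%, 5.54% and 0.258% in females. Of 36 other sodium-coupled transporters of kidney, 1 rose and 0 fell in males at Day 2, 4 rose and 1 fell at Day 3, and 3 rose and 9 fell of 35 tested at Day 5. In females, with 35 tested at Day 2 and Day 5, 1 rose at Day 2, 3 rose at Day 3 and none passed at Day 5. The largest rise in females was in Slc34a2, the NPT2b member of the same phosphate family, at 2.13 (SE 0.40, adjusted p = 0.0346) at Day 2 and 2.56 (SE 0.46, adjusted p = 0.0465) at Day 3. In males Slc34a2 was at 1.03 (adjusted p = 0.296) and 1.03 (adjusted p = 0.245) on the same days. Males and females differed in Slc34a2 at Day 2 (-1.22, adjusted p = 0.0394) and at Day 3 (-1.65, adjusted p = 0.0128), in both cases with the lower level in males.

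Other members of that list that moved most in males were Slc5a6, the sodium-coupled vitamin carrier, at 0.73 (adjusted p = 0.0420) at Day 2, and Slc38a3, a glutamine carrier, at 1.90 (adjusted p = 0.0478) at Day 3. The glutamate carrier Slc1a1 fell at Day 3, at -0.63 (adjusted p = 0.0281). At Day 5 Slc17a3 fell furthest, at -3.44 (adjusted p = 0.00967), and Slc6a12, the betaine carrier of the medulla, rose at 2.36 (adjusted p = 0.0222). The list's median log2 fold change was 0.32, 0.28 and -0.90 in males at Day 2, Day 3 and Day 5, and 0.26, 0.21 and -0.08 in females, against 0.02 to 0.04 over all genes tested.

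Of 25 partners, sodium pump subunits and regulators, 1 rose and 2 fell in males at Day 2, 2 rose and 8 fell at Day 3, and 1 rose and 6 fell at Day 5. In females 0 passed at Day 2, 5 fell at Day 3 and 0 passed at Day 5. Sgk1, a kinase that regulates sodium transport, rose in males on each day, at 1.11, 0.80 and 1.46 (adjusted p = 0.0380, 0.0194 and 0.00485). Car4, a membrane carbonic anhydrase of the proximal tubule, fell furthest in males at Day 2 and Day 5, at -1.19 and -2.70 (adjusted p = 0.0321 and 0.00592). Pth1r, the receptor of parathyroid hormone, which withdraws NPT2a from the apical membrane, was picked after its values were seen: it fell in males at Day 2, Day 3 and Day 5 (-0.75, -0.64 and -2.15, adjusted p = 0.0496, 0.0231 and 0.00638) and in females at Day 3 (-1.20, adjusted p = 0.0465). Fxyd2, the gamma subunit of the sodium pump, fell furthest at Day 3 in both sexes, at -1.48 in males (adjusted p = 0.0110) and -1.93 in females (adjusted p = 0.0465). Short genes as a whole were lower: genes under 1 kb had medians of -0.53 in males and -0.65 in females at Day 2 and of -0.57 and -0.64 at Day 3, and those of 2 to 4 kb, the class of Slc34a3, -0.15 and -0.10 at Day 3. Whether gene length had a part in these falls was not tested.

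Of 25 facilitated and exchange transporters of the proximal tubule, Slc16a1, the monocarboxylate carrier MCT1, had the furthest fall in males at Day 2 (-2.27, adjusted p = 0.000385) and Day 3 (-2.04, adjusted p = 0.000569), and in females at Day 2 (-1.26, adjusted p = 0.0346) and Day 5 (-1.69, adjusted p = 0.0168). Slc2a9, a urate carrier, rose furthest in males at Day 2 (1.04, adjusted p = 0.0499) and in females at Day 2 (1.45, adjusted p = 0.0235) and Day 3 (1.32, adjusted p = 0.0465). Aqp1, the water channel, rose in males at Day 3 (0.89, adjusted p = 0.0477). Slc7a13, an amino acid exchanger of the late proximal tubule, fell in males at Day 5 (-4.47, adjusted p = 0.00633) and in females at Day 3 (-5.53, adjusted p = 0.0467). Its level was far lower in females: at Day 3 males stood 9.66 higher on the log2 scale (adjusted p = 0.000343). The Day 0 females held Y-linked counts and those of Day 3 did not, and the part of this in the female fall was not tested. In counts, 1 rose and 1 fell in males at Day 2, 2 and 2 at Day 3, and 0 and 9 at Day 5. In females 1 rose and 1 fell at Day 2, 1 and 4 at Day 3, and 0 and 1 at Day 5.

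Of 25 proximal tubule enzymes and endocytosis genes, 0 rose and 1 fell in males at Day 2, 4 rose and 4 fell at Day 3, and 0 rose and 13 fell at Day 5. In females 0 passed at Day 2, 2 fell at Day 3 and 0 passed at Day 5. Acmsd, an enzyme of tryptophan breakdown, fell furthest in males at Day 2 (-1.70, adjusted p = 0.0207) and Day 3 (-1.80, adjusted p = 0.00867), and Cyp4b1 at Day 5 (-5.00, adjusted p = 0.00511). Pck1, the gate of gluconeogenesis, rose in males at Day 3 (2.04, adjusted p = 0.0266), and Miox, the inositol oxygenase of the proximal tubule, fell in females at Day 3 (-1.85, adjusted p = 0.0495). At Day 5 in males the median of this list was -1.85, beside -1.84 for the 10 carriers, in the fit with all 4 libraries. The summed level of the list was 10220 FPKM in the library labelled mouse 1 and 2619 to 8678 in the other 3, below the lowest Day 0 male, at 23950.

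The 10 genes are spread over 6 chromosomes. In GRCm38 coordinates of the count table, Slc34a1 runs on chromosome 13 from 55398187 to 55415592 and Slc34a3 on chromosome 2 from 25228898 to 25234364. Slc13a1 runs on chromosome 6 from 24088283 to 24168092 and Slc5a12 on chromosome 2 from 110597298 to 110647779. Slc6a19 and Slc9a3 are on chromosome 13 as well, Slc13a3 on chromosome 2, and Slc5a2, Slc2a2 and Slc4a4 on chromosomes 7, 3 and 5. Overlapping genes held at most 814 counts in any library (BC017158, at Slc5a2, which itself ran from 54 to 17155) and at most 36 for the other members. Their reads cannot be told apart from those of the member where counting ignored strand. At Slc13a1, 1 overlapping gene lies on the same strand, where strand would not separate them. Slc34a3, Slc5a12, Slc9a3 and Slc4a4 overlap no gene.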

How the data were processed

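Whole-kidney RNA of 32 mice was sequenced as paired-end reads of 150 bp. The authors deposited 1 table of read counts per gene with FPKM beside them. The submitters' notes name HTSeq and DESeq2, with no versions or roles, and GRCm39, whereas the methods name GRCm38, which the coordinates in the table follow. Per the file headers the table pairs gene identifiers with names. The deposited FPKM were found to equal counts over gene length and an effective library size, which in the 4 libraries over 50% mitochondrial was well below the total. Whether counting used strand is not given in the sources used here.

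Groups came from the labels. All sample columns were used (0 left out). Each comparison was fitted on the counts of the groups it compares with edgeR 4.0.16 in R 4.3.3 (TMM, filterByExpr, robust quasi-likelihood), with Benjamini-Hochberg adjustment over all genes tested and a threshold of 0.05. Interactions used 4 groups. The methods describe the 4 mice of each group as biological replicates. Alternatives were DESeq2 1.42.0, limma 3.58.1 (voom with sample weights), other size factors, filters (none, or 10 counts in every library), 1 fit over all groups, a replicate block, and leaving out libraries. On simulated data made from males of Day 3 and Day 0, edgeR called 146 of 200 changed genes in the right direction and 5 unchanged genes among 15443, and DESeq2 170 and 67 among 15908.

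The members and gene lists were chosen with earlier results of these data known. Apart from Pth1r and Malat1, chosen after their values were seen, named genes are the 10 members, the largest rise and fall of each list among genes past the threshold, and the nearest genes by correlation of log2 CPM with a prior count of 2, of which some are not reported here.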

Additional observations from a re-analysis of the deposited data

Results flagged for a closer look

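In 17 of the 80 sets of 4 FPKM values (10 genes in 8 groups), 1 library stood apart from the other 3 by Dixon's criterion, which chance meets in about 1 of 20 sets. The library labelled male Day 5 mouse 1 was the high one for 6 genes. It had 17.9 FPKM of Slc2a2 against at most 3.00 in the other 3, 17.1 of Slc34a3 against at most 4.51, 62.1 of Slc13a1 against at most 12.0, 71.5 of Slc13a3 against at most 15.0, 46.1 of Slc5a12 against at most 6.68, and 43.7 of Slc4a4 against at most 7.95. Female Day 0 mouse 4 was the high one for 4 genes, with 1232 FPKM of Slc34a1 against at most 891.0, 98.5 of Slc5a12 against at most 11.6, 110.4 of Slc6a19 against at most 35.05, and 91.5 of Slc4a4 against at most 31.98. Female Day 3 mouse 2 was the high one for 3 genes, with 101.1 FPKM of Slc5a2 against at most 62.3, 679.0 of Slc34a1 against at most 306.4 and 77.4 of Slc6a19 against at most 27.8.

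The other 4 sets fell in separate libraries. Male Day 0 mouse 4 had 31.1 FPKM of Slc2a2 against at most 21.0. Male Day 2 mouse 4 had 66.8 of Slc13a1, where the other 3 lay between 35.01 and 35.95, and it was the lowest of its group for Slc34a1 and Slc34a3. Female Day 5 mouse 4 had 49.7 of Slc5a12 against at most 23.4. Female Day 2 mouse 3 had 13.5 of Slc9a3, below the other 3 at 18.2 to 19.0.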

How the results depend on the processing

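Against Day 0, DESeq2 called 2 members in males at Day 2 (0 by edgeR), 5 at Day 3 (1) and 5 at Day 5 (2), and in females 3 at Day 3 (1) and 1 at Day 5 (0). It called 1 between the sexes at Day 0 (0). With limma voom weights the counts were 5, 6 and 10 in males and 6, 7 and 2 in females at Day 2, Day 3 and Day 5. Between the sexes they were 3 for Day 0, 3 for Day 2, 5 for Day 3 and 8 for Day 5, and for the interactions 2, 2 and 9. Without a filter on low counts the counts were 1 in males at Day 5 (of 2263 genes called), 2 in females at Day 3 (1028) and 1 between the sexes at Day 3 (3145). With at least 10 counts in every library they were 2 in males (4021) and 3 in females (1678) at Day 3. A fit over all 8 groups gave 0 in males at Day 3 (3560), 7 at Day 5 (5666), 0 in females at Day 2 (3976), 0 between the sexes at Day 3 (180) and 3 at Day 5 (1766). With a fold limit of 1.5 as well, 0 remained in males at Day 3 (591 of 15908 genes), in females at Day 2 (234 of 16541) and between the sexes at Day 3 (322 of 16673). Without libraries over 50% mitochondrial, an alternative chosen after seeing the data, 0 passed in males at Day 5, but this leaves 1 male library and 0 of 18506 genes passed, so it says nothing about stability. The cause of these differences was not tested.

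Same-numbered libraries did not all deviate together: in no comparison were all 4 correlations over 0.1. They ran from -0.415 to 0.481, and between the sexes at Day 0 they were 0.272, -0.0737, 0.444 and 0.481. With the replicate block 0 members passed in males at Day 3 (90 of 15908 genes), in females at Day 2 (52 of 16541) and in females at Day 3 (0 of 17065), and 3 passed in males at Day 5 (1949 of 14969). Under the block, log2 fold changes against Day 0 changed sign for Slc4a4 in males at Day 2 (-0.0060), and in females for Slc13a3 at Day 2 (-0.0304), Slc5a2 at Day 3 (0.0425), Slc5a12 at Day 5 (0.67) and Slc4a4 at Day 5 (0.0726).

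Against Day 0, 19 of 500 log2 fold changes under settings other than leaving out 1 library changed sign. Changes of sign in the other comparisons were not counted. Beside those of the block, Slc13a3 in males at Day 3 came to 0.0038 in DESeq2, 0.0180 without a filter and 0.0129 with at least 10 counts. With voom weights in females, Slc5a2 (-0.0291) and Slc13a3 (-0.45) at Day 2 and Slc2a2 (0.12), Slc5a12 (1.28) and Slc4a4 (0.34) at Day 5 changed sign. Without libraries over 50% mitochondrial, Slc13a1 (1.03), Slc5a12 (1.11) and Slc9a3 (0.46) in males and Slc2a2 (0.0282), Slc5a12 (0.0142) and Slc4a4 (0.0070) in females did so at Day 5.

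Leaving out 1 library at a time, 0 to 3 members passed in males at Day 3, 0 to 10 at Day 5, 0 to 4, 0 to 7 and 0 to 2 in females at Day 2, Day 3 and Day 5, 1 to 5 between the sexes at Day 3, 0 to 10 at Day 5, and 0 to 6 for the Day 5 interaction. The genes called in all moved as well, from 669 to 6220 in males at Day 3, 832 to 3951 at Day 5, 21 to 4776, 0 to 6774 and 8 to 2082 in females, 1924 to 5770 between the sexes at Day 3, 0 to 2644 at Day 5 and 0 to 1173 for the Day 5 interaction. Of 480 log2 fold changes against Day 0, 39 changed sign, and those of the other comparisons were not counted. In males at Day 2 the ranges with a change of sign were -0.11 to 0.39 for Slc5a2, -0.19 to 0.0155 for Slc13a3, -0.13 to 0.35 for Slc6a19 and -0.15 to 0.18 for Slc4a4. At Day 3 they were -0.0632 to 0.0739 for Slc13a3 and -0.0384 to 0.34 for Slc6a19, and at Day 5 -2.32 to 0.11 for Slc5a12. In females at Day 2 they were -0.15 to 0.76 for Slc5a2, -0.0424 to 0.48 for Slc2a2, -0.39 to 0.40 for Slc13a3, -0.15 to 1.85 for Slc5a12, -0.69 to 0.36 for Slc6a19 and -0.0797 to 0.87 for Slc4a4. At Day 3 they were -0.61 to 0.195 for Slc5a2, -0.0151 to 0.46 for Slc2a2, -0.20 to 1.82 for Slc5a12 and -1.05 to 0.22 for Slc6a19. At Day 5 they were -0.59 to 0.22 for Slc5a2, -0.49 to 0.20 for Slc2a2, -0.54 to 1.57 for Slc5a12, -0.92 to 0.22 for Slc6a19, -0.0152 to 0.61 for Slc9a3 and -0.45 to 0.59 for Slc4a4.

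Over all genes the count called depended on the tool. In edgeR, DESeq2 and voom it was 507, 2869 and 7446 in males at Day 2, 3901, 5548 and 9081 at Day 3 and 2878, 4053 and 8197 at Day 5, and 320, 2138 and 8269 in females at Day 2, 945, 3466 and 8152 in females at Day 3, and 42, 704 and 3070 in females at Day 5. Voom called 4036, 3156, 7079 and 4533 genes between the sexes at Day 0, 2, 3 and 5 (edgeR 72, 244, 3546 and 42) and 1950, 2116 and 5494 for the interactions (edgeR 0, 2 and 41). The lowest count of a member in any library was 34, of Slc34a3, in male Day 5 mouse 3, the library of the smallest effective size.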
